A study of Mus musculus with 34 samples.

Results

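The simple epithelial keratins Krt7, Krt8, Krt18 and Krt19 were followed in 34 RNA-seq libraries of mouse cells, from epiblast stem cells (EpiSC) and from the definitive endoderm (DE) to which they were differentiated. The genes were chosen by symbol, and 4 of 4 were found in both count tables, among 53655 genes of which 56 carry a symbol of the keratin family. Levels are given as CPM, a gene's count scaled to a library total of 1 M (mega) counts.

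Keratins are the intermediate filament proteins of epithelia. A filament is built from pairs of unlike chains, each joining a type II keratin (here Krt7 and Krt8) to a type I keratin (here Krt18 and Krt19), and a chain without a partner is degraded. Krt8 and Krt18 are the first keratins made in the mouse embryo and mark trophectoderm, visceral endoderm and later the lining of the gut and its glands. Krt19 is the smallest type I keratin and nearly lacks the tail domain, and Krt7 is known from ducts and glands.

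The EpiSC are the primed pluripotent state and were grown on irradiated embryonic fibroblasts in N2B27 medium with hsFGF at 12.5 ng/mL, activin A at 20 ng/mL and the tankyrase inhibitor NVP-TNKS656 at 175 nM. For DE, EpiSC on laminin in chemically defined medium received the GSK3 inhibitor CHIR at 3 uM with activin A at 40 ng/mL over 16 h, and then, over 24 h, LDN-193189 (100 nM), which blocks BMP receptors, with activin A at 100 ng/mL. Cells carrying CXCR4 were then collected with magnetic beads, so DE is a selected fraction of each culture. The cells were of the inbred strains C57BL/6J (5 EpiSC and 5 DE libraries), PWK/PhJ (3 and 4), WSB/EiJ, NZO/HiLtJ and NOD/ShiLtJ (2 and 2 each), CAST/EiJ (2 and 1) and DBA/2J (1 and 1). Each library within a cell type came from a different cell line, and 16 lines gave both an EpiSC and a DE library. PWK/PhJ, WSB/EiJ and CAST/EiJ are wild-derived strains, and the labels give no sex or age for any line. A stranded kit with polyA selection was used for EpiSC, and a low-input kit with cDNA amplification for DE, so cell type and kit cannot be told apart in any difference between EpiSC and DE given below.

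The tables held 25.6 to 33.8 M (mega) counts per EpiSC library and 23.8 to 67.7 M per DE library. Among markers of the labelled cell types, 11 of 11 definitive endoderm genes, Cxcr4 of the sort among them, rose in DE by edgeR's test between the cell types described below, where 37.3% of 20907 tested genes were called higher and 39.9% lower. Of 10 epiblast genes 7 fell and 3 rose, the latter being Fgf5 (mean 267.6 CPM in EpiSC and 1430 CPM in DE), Otx2 (170.5 and 652.4 CPM) and Sall4 (308.5 and 902.1 CPM). Libraries that stood apart were the DE of both NOD/ShiLtJ lines, whose endoderm markers summed to 1718 CPM (line AC576) and 4393 CPM (AC595) against 6202 to 13970 CPM in the other DE libraries. Their 12 fibroblast markers summed to 1385 and 1228 CPM against 38.9 to 477.4 CPM elsewhere in DE. The 2 CAST/EiJ EpiSC libraries also stood apart, with endoderm markers at 1270 and 1504 CPM against 117.6 to 561.4 CPM in the other EpiSC. Reads of every strain were aligned to mm10, the C57BL/6J genome, so a strain difference in alignment cannot be told apart from a difference in expression.

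Krt7 (chromosome 15, 101411043 to 101430313, plus strand), Krt8 (chromosome 15, 101996698 to 102004482, minus strand) and Krt18 (chromosome 15, 102028180 to 102032027, plus strand) lie in the type II keratin cluster, where Krt18 is the type I gene beside Krt8. Krt19 (chromosome 11, 100140810 to 100148665, minus strand) lies in the type I cluster. Positions are from GENCODE M21 on GRCm38 (mm10), and the genes have 9, 9, 7 and 6 exons in that order. The 250 bases before the RefSeq start are shown for the 3 genes of chromosome 15, and no such sequence was at hand for Krt19. They are chr15:101412153-101412402 on the plus strand for Krt7, chr15:102004343-102004592 on the minus strand for Krt8 and chr15:102027966-102028215 on the plus strand for Krt18, from RefSeq on GRCm38.p6. The RefSeq starts differ from the GENCODE ones, so the Krt7 window lies inside the gene span given above. The Krt8 and Krt18 windows partly overlap theirs. Capitals mark matches, on either strand, of the E-box bound by SNAI and ZEB factors (CAGGTG), the GC box (GGGCGG) and the GATA motif (AGATAA).
Krt7: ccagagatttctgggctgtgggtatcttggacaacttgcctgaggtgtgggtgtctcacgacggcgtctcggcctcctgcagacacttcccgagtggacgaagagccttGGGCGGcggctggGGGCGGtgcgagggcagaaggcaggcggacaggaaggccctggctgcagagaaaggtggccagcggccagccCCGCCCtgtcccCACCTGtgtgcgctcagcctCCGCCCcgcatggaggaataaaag
Krt8: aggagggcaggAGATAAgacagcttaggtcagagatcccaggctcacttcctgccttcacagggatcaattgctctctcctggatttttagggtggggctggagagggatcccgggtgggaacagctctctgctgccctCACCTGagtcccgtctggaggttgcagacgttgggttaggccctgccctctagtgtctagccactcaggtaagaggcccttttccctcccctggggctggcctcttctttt
Krt18: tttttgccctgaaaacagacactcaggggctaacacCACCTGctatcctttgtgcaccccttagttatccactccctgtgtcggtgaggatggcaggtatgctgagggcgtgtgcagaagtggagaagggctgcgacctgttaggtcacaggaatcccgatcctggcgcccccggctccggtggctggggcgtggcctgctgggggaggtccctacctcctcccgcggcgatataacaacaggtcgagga

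The E-box letters were found in 3 of 3 windows, with the first base 44 bases before the start in Krt7, 111 in Krt8 and 214 in Krt18. They occur in 17.2% of 32851 windows of the same length. The GC box was found at 4 places in Krt7 (32.7% of windows hold it) and the GATA motif at 1 place in Krt8, 239 bases before the start (9.99% of windows). The other motifs searched on both strands were the TATA box (TATAAA; 12.4% of windows), CCAAT (33.8%), AP-1 (TGANTCA; 6.75%), TEAD (GGAATG; 12.6%), GRHL (ACCGGT; 1.86%), FOXA (TGTTTAC; 3.17%) and SOX (ACAATG; 10.7%), and their letters were not in these windows. No motif matches shared bases with another, and a match is a description of letters, not of binding.

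All 4 keratins were higher in DE than in EpiSC, Krt8 and Krt18 without overlap between the cell types. The share of all counts that fell on the 4 genes ran from 0.00487% to 0.121% in EpiSC and from 0.188% to 0.935% in DE. By edgeR's quasi-likelihood F test with Benjamini-Hochberg adjustment (called under 0.05), 4 of 4 rose, against 37.3% of 20907 tested genes that were higher in DE and 77.2% called in either direction. In bulk RNA a change in the number of cells of a type and a change in RNA per cell cannot be told apart.

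Krt8, the type II partner of Krt18, was at 12.8 to 773.3 CPM in EpiSC (median 53.2, n = 17) and at 1302 to 5373 CPM in DE (median 1908, n = 17). Every DE library was above every EpiSC library. The mean was 154.2 ± 202.9 CPM in EpiSC and 2178 ± 1027 CPM in DE (SD, n = 17 each), and within the 16 lines DE was higher by 6.1-fold to 151-fold (median 35.2-fold). The fitted log2 fold was 4.61 ± 0.37 (SE; adjusted p = 2.33e-12, edgeR).

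Krt18, the type I chain of the same pair, was at 21.8 to 306.6 CPM in EpiSC (median 44.3, n = 17) and at 417.8 to 3535 CPM in DE (median 1234, n = 17). Again no EpiSC library reached the lowest DE library. The mean went from 94.5 ± 86.2 CPM to 1262 ± 728.7 CPM (SD, n = 17 each), the fold within lines ran from 5.79 to 42.6 (median 15.8), and the log2 fold was 4.06 ± 0.24 (SE; adjusted p = 1.85e-15, edgeR).

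Krt7, the second type II chain, was at 1.96 to 56.1 CPM in EpiSC (median 7.91, n = 17) and at 52.9 to 320.4 CPM in DE (median 127.7, n = 17). The ranges overlapped at 1 EpiSC library, of CAST/EiJ line WM080, which lay above the lowest DE values, of NOD/ShiLtJ line AC576 and DBA/2J line 55. Within lines DE was higher in 16 of 16, by 5.34-fold to 68.2-fold, and the log2 fold was 4.15 ± 0.26 (SE; adjusted p = 4.73e-15, edgeR).

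Krt19 had the most overlap. It was at 1.39 to 84.8 CPM in EpiSC (median 5.13, n = 17) and at 19.5 to 412.8 CPM in DE (median 112, n = 17), and 3 EpiSC libraries lay above the lowest DE library. DE was higher in 15 of 16 lines. In the exception, C57BL/6J line 4, Krt19 was at 84.8 CPM as EpiSC and 69.3 CPM as DE, a ratio of 0.817, while Krt8 in that line went from 284.3 to 1735 CPM. The log2 fold over all libraries was 3.32 ± 0.54 (SE; adjusted p = 2.88e-06, edgeR), and 3.96 without the EpiSC library of line 4.

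**Figure D1:**
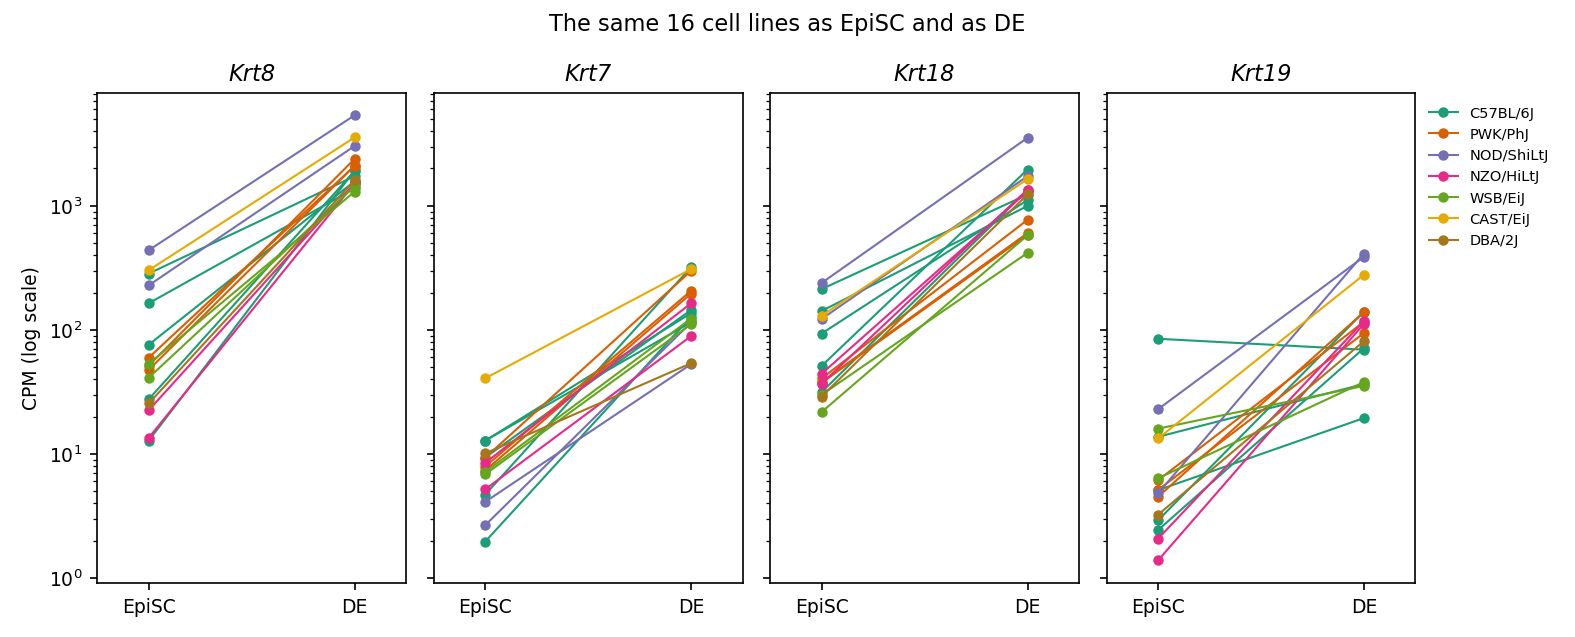
CPM (log scale) of each keratin in the 16 cell lines that gave both libraries, with a line joining EpiSC to DE and colour for strain. Krt8, Krt7 and Krt18 were higher in DE in 16 of 16 lines and Krt19 in 15 of 16, the falling line being C57BL/6J line 4.

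Within single strains the cell types were compared for the 5 strains with at least 2 lines of each, and 18 of 20 comparisons were called. The shares of all tested genes called higher in DE were 30.9% in C57BL/6J, 27.2% in PWK/PhJ, 21.7% in NOD/ShiLtJ, 20.2% in NZO/HiLtJ and 20.0% in WSB/EiJ. Krt8 had log2 folds from 3.53 ± 0.85 (SE) in NOD/ShiLtJ to 6.31 ± 0.97 in NZO/HiLtJ, where EpiSC were at 13.5 and 22.5 CPM and DE at 1518 and 1519 CPM. Krt18 ran from 3.65 ± 0.41 in C57BL/6J to 4.94 ± 0.69 in NZO/HiLtJ, and Krt7 kept the narrowest range, from 4.07 ± 0.68 in WSB/EiJ to 4.64 ± 0.56 in PWK/PhJ. Krt19 was called in NZO/HiLtJ (5.95 ± 1.47), NOD/ShiLtJ (4.72 ± 1.35) and PWK/PhJ (4.54 ± 1.09). The NOD/ShiLtJ call of Krt19 ended without the EpiSC library of line AC595 (3.89, adjusted p = 0.0906, edgeR).

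Krt19 was not called in C57BL/6J (1.64 ± 0.75, adjusted p = 0.0603, edgeR) or WSB/EiJ (1.72 ± 1.20, adjusted p = 0.258, edgeR). With the cell line as a block, which pairs the libraries of a line, the C57BL/6J difference was 2.57 and called (adjusted p = 0.011, edgeR). Without the EpiSC library of line 4 it was 3.50 and called (adjusted p = 5.27e-05, edgeR). At about the main size it was also called by DESeq2 (1.70, adjusted p = 0.0317), with a stricter filter on low counts (1.68, adjusted p = 0.0459, edgeR) and with no filter on low counts (1.68, adjusted p = 9.03e-23, edgeR). It was called too without the DE library of line 44 (1.93) and, at 1.69 each, without the EpiSC library of CAST/EiJ line WM078 or WM080 or of NOD/ShiLtJ line AC595 (adjusted p = 0.0335, 0.0493, 0.0495 and 0.0499, edgeR). The WSB/EiJ difference was called with no filter (1.73, adjusted p = 1.52e-09, edgeR). In fits with no filter, here and below, adjusted p-values were far smaller at nearly the same log2 fold. The cause was not tested, and such calls are not taken as support. The difference of the cell type effect between the 5 strains was tested as an interaction, and 0 of 4 keratins passed, against 10.7% of 20907 genes, with 1 of 4 (Krt19) at an unadjusted p under 0.05 (0.0242, edgeR). The adjusted p was 0.129 for Krt19, 0.226 for Krt8, 0.636 for Krt18 and 0.977 for Krt7 (edgeR). DESeq2 called 1 of them, Krt19 (adjusted p = 0.039), and without the EpiSC library of C57BL/6J line 5-1 edgeR called Krt8 (adjusted p = 0.0419).

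**Figure D2:**
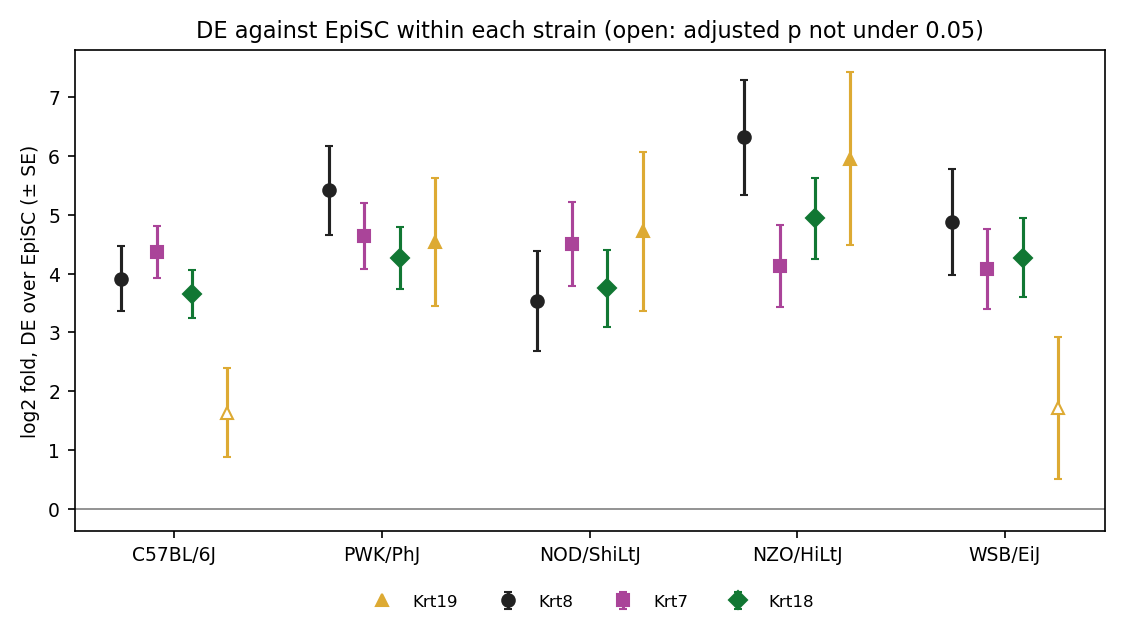
Log2 fold of DE over EpiSC with its standard error for each keratin in the 5 strains with at least 2 lines of each cell type, where open symbols did not pass the test. Krt7 stayed between 4.07 and 4.64 in the 5 strains, while Krt19 lay at 1.64 and 1.72 in C57BL/6J and WSB/EiJ and at 4.54 to 5.95 in the other strains.

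Levels between genes were compared per kb of transcript or of coding sequence. In DE the means were 1112 CPM per kb for Krt8, 878.4 for Krt18, 85.8 for Krt19 and 38.6 for Krt7. In EpiSC they were 78.8, 65.8, 9.97 and 2.98 CPM per kb in the same order. The Krt7 transcript used is 4094 bases long with 1371 coding bases, so its level is also given per coding length, where Krt7 was at 0.0858 ± 0.040 of Krt8 in DE and 0.172 ± 0.13 in EpiSC (SD, n = 17 each). Krt19 per coding length was at 0.112 ± 0.066 of Krt18 in DE and 0.160 ± 0.14 in EpiSC (SD, n = 17 each). Krt8 and Krt18 were thus the higher type II and type I gene by both lengths in each cell type.

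The balance of type II to type I chains was taken as the log2 ratio of Krt7 and Krt8 to Krt18 and Krt19, in counts per kb. It was 0.32 ± 0.59 in DE and -0.41 ± 0.75 in EpiSC (SD over 16 lines), and higher in DE in 13 of 16 lines. The difference was 0.73 ± 0.64 (SD, 16 lines; two-sided exact permutation test of the signs over lines, p = 0.000702). For Krt8 over Krt18 alone it was 0.74 ± 0.66, also higher in DE in 13 of 16 lines (same exact test, p = 0.000702). The exceptions, the same lines for both measures, were both NOD/ShiLtJ lines and the only CAST/EiJ line with both libraries. Krt8 over Krt18 went from 1.35 to 1.12 in AC576, from 1.37 to 1.28 in AC595 and from 1.71 to 1.59 in WM078. The rise of the ratio in DE was thus not seen in those strains. Lines of the same strain changed in the same direction, while the exact test takes all 16 lines as independent. Its p therefore does not measure the spread between strains.

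The ratio of Krt8 to Krt18 per kb differed in level among the strains. In DE it was 0.714, 1.02, 1.03, 1.04 and 1.06 in C57BL/6J, and 1.79, 2.27, 2.56 and 2.64 in PWK/PhJ. It was 1.83 and 2.29 in WSB/EiJ and 1.59 in CAST/EiJ. The DE libraries of these wild-derived strains lay above those of NOD/ShiLtJ (1.12 and 1.28), NZO/HiLtJ (0.823 and 0.848) and DBA/2J (0.955). In EpiSC the ratio ran from 0.298 to 0.979 in C57BL/6J, from 0.932 to 1.15 in PWK/PhJ, from 1.30 to 1.39 in WSB/EiJ and from 1.71 to 1.85 in CAST/EiJ. The EpiSC of NZO/HiLtJ were at 0.268 and 0.373, with C57BL/6J line 5-1 (0.298) between them, DBA/2J was at 0.646, and NOD/ShiLtJ at 1.35 and 1.37 lay among the wild-derived strains. This order was noticed in the values and is given with no test. Krt8 also shares sequence with the processed pseudogene Krt8-ps (98.6% identical over 941 bases), and adding its counts put PWK/PhJ DE at 1.85 to 2.72 and CAST/EiJ DE at 1.68.

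**Figure D3:**
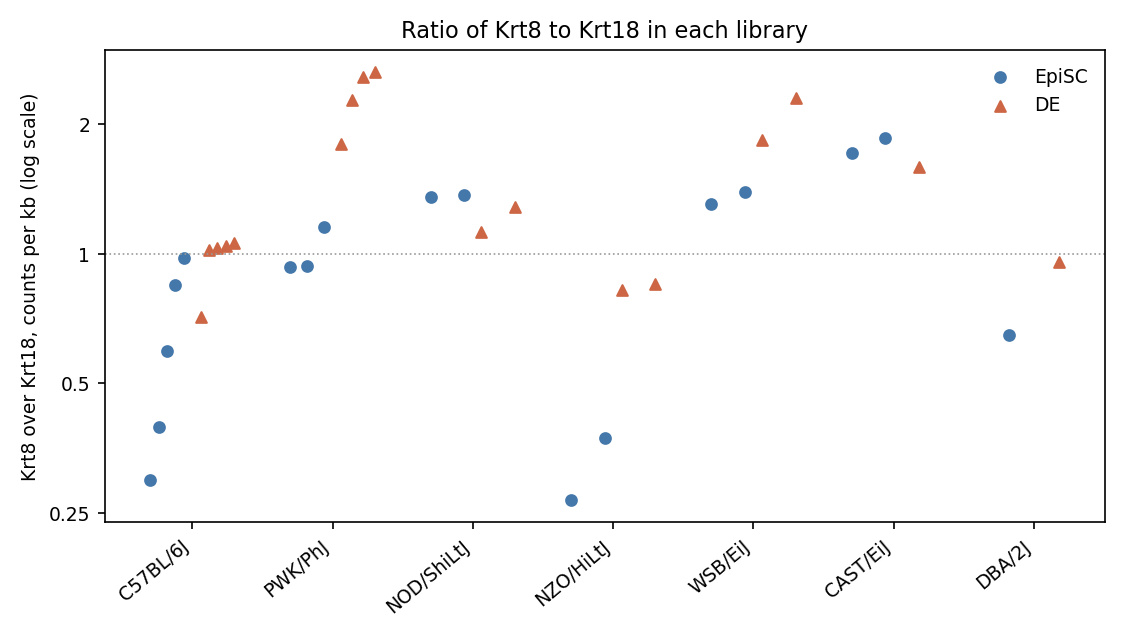
Ratio of Krt8 to Krt18 in counts per kb (log scale) in each EpiSC and DE library, by strain, with a dotted line at equal levels. PWK/PhJ, WSB/EiJ and CAST/EiJ DE libraries sit at 1.59 to 2.64, above the 0.714 to 1.28 of the other DE libraries.

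Strains differed in keratin levels within DE for 3 of 4 genes by the F test over 5 strains, against 22.3% of 19290 genes. The adjusted p was 0.00133 for Krt8, 0.00186 for Krt18, 0.00298 for Krt19 and 0.229 for Krt7 (edgeR). With no filter on low counts Krt7 was called too (adjusted p = 1.4e-05, edgeR). Without both NOD/ShiLtJ DE libraries 1 of 4 was called, Krt18, with Krt8 at an adjusted p of 0.0601 and Krt19 at 0.178 (edgeR).

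In DE, Krt8 was at 1382, 1581, 1735, 1908 and 1932 CPM in C57BL/6J, at 2101, 2103, 2392 and 2533 CPM in PWK/PhJ, and at 3040 and 5373 CPM in NOD/ShiLtJ. It was at 1518 and 1519 CPM in NZO/HiLtJ, 1302 and 1442 CPM in WSB/EiJ, 3563 CPM in CAST/EiJ and 1608 CPM in DBA/2J. By mean, the order was NOD/ShiLtJ, CAST/EiJ, PWK/PhJ, C57BL/6J, DBA/2J, NZO/HiLtJ and WSB/EiJ. The ranges of PWK/PhJ and NOD/ShiLtJ lay above that of C57BL/6J, NZO/HiLtJ and DBA/2J lay inside it, and WSB/EiJ overlapped it. Against C57BL/6J, NOD/ShiLtJ was higher (log2 fold 1.23 ± 0.21, SE; adjusted p = 0.00184, edgeR), where 7.98% of 19290 genes were called higher. Without line AC576 the difference was 0.69 and not called (adjusted p = 0.117, edgeR). PWK/PhJ was not called (0.32 ± 0.17, adjusted p = 0.245, edgeR), although its range did not overlap that of C57BL/6J.

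Krt18 in DE had another order. It was at 998.6, 1113, 1234, 1340 and 1963 CPM in C57BL/6J, at 585.6, 603.1, 771.9 and 1037 CPM in PWK/PhJ, and at 417.8 and 579.4 CPM in WSB/EiJ. It was at 1736 and 3535 CPM in NOD/ShiLtJ, 1313 and 1354 CPM in NZO/HiLtJ, 1640 CPM in CAST/EiJ and 1236 CPM in DBA/2J. WSB/EiJ lay below every C57BL/6J library, and PWK/PhJ overlapped C57BL/6J at its highest line, AC699. PWK/PhJ was lower than C57BL/6J (-0.94 ± 0.27, SE; adjusted p = 0.0247, edgeR; 7.47% of genes called lower), and so was WSB/EiJ (-1.44 ± 0.35, adjusted p = 0.0468, edgeR; 1.09% of genes called lower). The PWK/PhJ call ended without DE line AC698 (-0.84) or AC705 (-0.83; adjusted p = 0.0842 for both, edgeR). The WSB/EiJ call ended with RLE scaling (adjusted p = 0.0541) and in 11 of 17 runs that left out 1 library. Those were AC627, AC635, AC653, AC671, AC695, AC698, AC705 and C57BL/6J lines 1, 4, 44 and 5-1, with log2 folds as low as -1.69 and, without AC627, of -1.20. NOD/ShiLtJ was at 0.91 ± 0.31 and not called (adjusted p = 0.0756, edgeR). It was called with total counts only (0.99, adjusted p = 0.0407), with no filter (0.88, adjusted p = 0.000916), without DE line AC595 (1.38, adjusted p = 0.0206) and without DE line 2 of C57BL/6J (1.13, adjusted p = 0.0142; edgeR).

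Krt19 in DE was at 19.5, 36.6, 69.3, 71.3 and 140.4 CPM in C57BL/6J, at 94.4, 116.3, 139.4 and 146.3 CPM in PWK/PhJ, and at 388.7 and 412.8 CPM in NOD/ShiLtJ. It was at 112 and 117.8 CPM in NZO/HiLtJ, 35.4 and 38.0 CPM in WSB/EiJ, 278.4 CPM in CAST/EiJ and 81.2 CPM in DBA/2J. NOD/ShiLtJ and then CAST/EiJ lay above all other DE libraries, and the remaining strains overlapped the wide range of C57BL/6J. NOD/ShiLtJ was higher than C57BL/6J (2.47 ± 0.46, SE; adjusted p = 0.00325, edgeR), with no change of call in any run that left out 1 library. The NOD/ShiLtJ DE libraries also carried the most fibroblast marker counts and the fewest endoderm marker counts of all DE libraries. The visceral and parietal endoderm list summed to 2314 and 1311 CPM in them against 327.2 to 1120 CPM elsewhere. The surface ectoderm list summed to 1276 and 708.9 CPM against 221.9 to 619.3 CPM. A few genes carried these sums. Sparc reached 2253 CPM in DE, and no other gene of the first list passed 47.02 CPM in any DE library. Sfn reached 781.1 CPM and Perp 534 CPM, and no other gene of the second list passed 24.87 CPM. The sums alone do not tell which cells were present. The part of other cell types in the keratin values was not tested.

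Krt7 in DE was at 115.4, 127.7, 136.4, 144.7 and 320.4 CPM in C57BL/6J, at 124.3, 195.9, 206.7 and 299.3 CPM in PWK/PhJ, and at 52.9 and 115 CPM in NOD/ShiLtJ. It was at 89.1 and 163.8 CPM in NZO/HiLtJ, 111.2 and 123.5 CPM in WSB/EiJ, 309.2 CPM in CAST/EiJ and 53.9 CPM in DBA/2J. NOD/ShiLtJ, highest for the other 3 keratins, was second lowest for Krt7 by mean (-1.13 ± 0.47 against C57BL/6J, SE; adjusted p = 0.144, edgeR; called with no filter, adjusted p = 0.000133). In NZO/HiLtJ DE, 0 of 4 keratins differed from C57BL/6J, and 1.41% of all genes did. The same 0 of 4 had an unadjusted p under 0.05 (edgeR), and DESeq2 called 0 of 4.

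**Figure D4:**
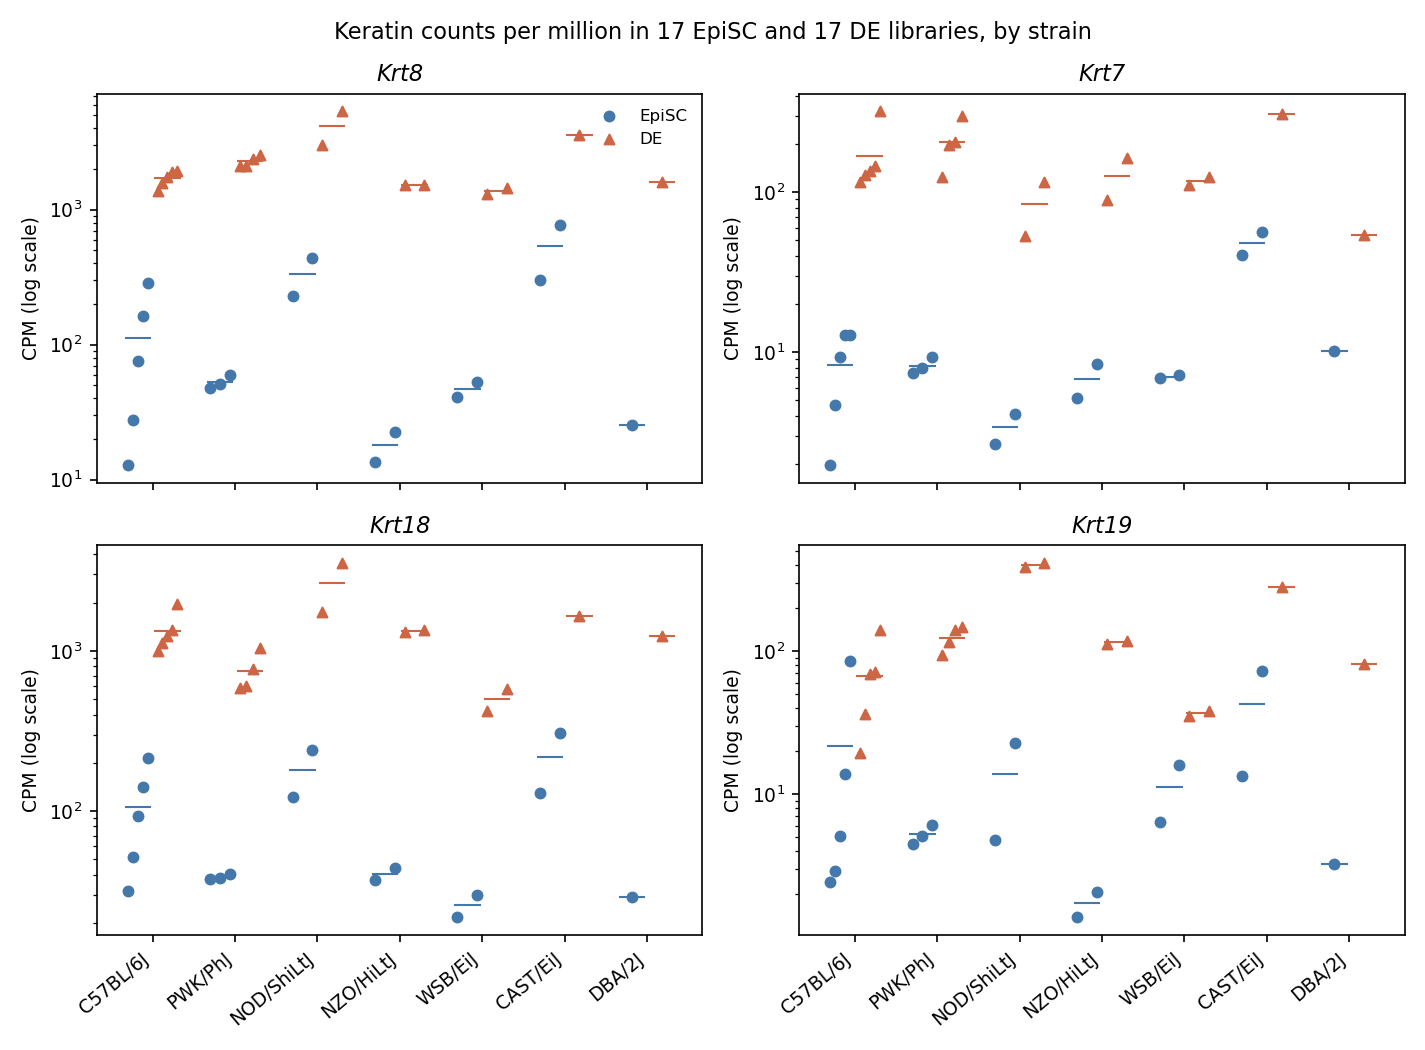
CPM (log scale) of each keratin in every EpiSC (circles) and DE (triangles) library by strain, with horizontal bars at group means. In DE, NOD/ShiLtJ has the highest mean of Krt8 and both of the highest libraries of Krt19, WSB/EiJ is lowest for Krt18, and among EpiSC CAST/EiJ is highest for Krt7.

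Within EpiSC the F test over 6 strains called 3 of 4 keratins, against 52.8% of 17868 genes. The adjusted p was 0.00147 for Krt7, 0.0114 for Krt18, 0.015 for Krt8 and 0.195 for Krt19 (edgeR). The Krt7 call ended without the CAST/EiJ libraries (0.416), the Krt8 call without CAST/EiJ line WM080 (0.0525), and Krt19 was called without C57BL/6J line 4 (0.0244; adjusted p, edgeR).

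Krt7 in EpiSC was at 1.96, 4.70, 9.35, 12.8 and 12.8 CPM in C57BL/6J and at 40.7 and 56.1 CPM in CAST/EiJ. It was at 7.35, 7.91 and 9.32 CPM in PWK/PhJ, 2.66 and 4.11 CPM in NOD/ShiLtJ, 5.18 and 8.47 CPM in NZO/HiLtJ, 6.84 and 7.15 CPM in WSB/EiJ and 10.1 CPM in DBA/2J. Both CAST/EiJ libraries lay above all other EpiSC, and the remaining strains all fell in the range of C57BL/6J. Krt7 in CAST/EiJ against C57BL/6J was the 1 of 20 strain contrasts of keratins in EpiSC that edgeR called (2.48 ± 0.48, SE; adjusted p = 0.00183), where 14.5% of 17868 genes were called higher. DESeq2 called 6, adding Krt8 in CAST/EiJ (2.20) and NZO/HiLtJ (-2.61), Krt19 in NZO/HiLtJ (-3.62) and Krt18 in PWK/PhJ (-1.51) and WSB/EiJ (-2.06). Without the EpiSC library of C57BL/6J line 2, 4 or 5-1, edgeR called 2, 3 and 4. By edgeR, the shares of genes called in either direction, with 0 of 4 keratins each, were 29.8% for PWK/PhJ, 12.9% for NOD/ShiLtJ, 5.52% for NZO/HiLtJ and 7.41% for WSB/EiJ, and at an unadjusted p under 0.05 the keratins were Krt18 in PWK/PhJ, Krt7 in NOD/ShiLtJ, Krt8 and Krt19 in NZO/HiLtJ and Krt18 in WSB/EiJ. CAST/EiJ EpiSC were also the ones with raised endoderm marker sums, and that part was not tested.

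Krt8 in EpiSC was at 12.8, 27.6, 75.9, 163.9 and 284.3 CPM in C57BL/6J, at 302.5 and 773.3 CPM in CAST/EiJ, and at 228.5 and 438.8 CPM in NOD/ShiLtJ. It was at 47.7, 51.5 and 59.7 CPM in PWK/PhJ, 41.1 and 53.2 CPM in WSB/EiJ, 13.5 and 22.5 CPM in NZO/HiLtJ and 25.5 CPM in DBA/2J. CAST/EiJ lay above C57BL/6J without overlap, while NOD/ShiLtJ overlapped it and C57BL/6J held the lowest EpiSC library of all. CAST/EiJ did not pass (2.18 ± 0.82, adjusted p = 0.064, edgeR), and it was called without C57BL/6J line 4 (2.88, adjusted p = 0.0155, edgeR) and by DESeq2 (adjusted p = 0.0276).

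Krt18 in EpiSC was at 31.5, 51.2, 93.4, 141.9 and 213.2 CPM in C57BL/6J and at 130.1 and 306.6 CPM in CAST/EiJ. It was at 37.4, 38.0 and 40.6 CPM in PWK/PhJ, 122.4 and 238.8 CPM in NOD/ShiLtJ, 36.9 and 44.3 CPM in NZO/HiLtJ, 21.8 and 30.0 CPM in WSB/EiJ and 29.0 CPM in DBA/2J. WSB/EiJ and DBA/2J were below every C57BL/6J library, and the other strains overlapped it. Krt19 in EpiSC was at 2.43, 2.92, 5.11, 13.7 and 84.8 CPM in C57BL/6J, 13.3 and 72.3 CPM in CAST/EiJ and 4.82 and 22.9 CPM in NOD/ShiLtJ. It was at 4.51, 5.13 and 6.14 CPM in PWK/PhJ, 6.37 and 16.0 CPM in WSB/EiJ, 1.39 and 2.07 CPM in NZO/HiLtJ and 3.24 CPM in DBA/2J, so only NZO/HiLtJ lay wholly below C57BL/6J.

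The spread among EpiSC libraries was wide. The SD of log2 CPM over 17 EpiSC libraries was 1.78 for Krt8, 1.66 for Krt19, 1.23 for Krt18 and 1.17 for Krt7, larger than in 99.5%, 99.4%, 98.4% and 98.2% of 9759 genes whose mean log2 CPM reached 3. Krt19 itself did not reach that mean in EpiSC, so its share is against genes of higher level. In DE it was 0.53 for Krt8, 0.77 for Krt18, 0.77 for Krt7 and 1.19 for Krt19, larger than in 76.2%, 89.8%, 89.8% and 97.0% of 9309 genes. Krt8 thus had the widest spread of the 4 in EpiSC and the narrowest in DE.

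The keratins varied together to unequal degrees. Over the 17 EpiSC libraries Pearson's r of log2 CPM was 0.89 for Krt8 with Krt18, 0.84 for Krt8 with Krt19 and 0.54 for Krt8 with Krt7. Over the 17 DE libraries it was 0.61 for Krt8 with Krt18, 0.82 for Krt8 with Krt19, and -0.19 to 0.04 for Krt7 with the other 3. These values are descriptions, with no p, over libraries that share strains and a kit and differ in depth. The genes most like Krt8 in EpiSC were Etl4 (r = 0.91), the desmosomal linker Dsp (0.90), Krt18 (0.89), Lrrc16a and Ptpru (0.88 each). Those most like Krt19 in EpiSC included Tagln2 (0.91), Csrp1 (0.90), the adherens junction gene Ctnna1 and Bmf (0.89 each). In DE, Krt8 was most like the clathrin adaptor gene Ap2m1 (0.92), Atxn10 (0.91), Tubb6, Mvp and Anxa2 (0.90 each). Krt19 in DE was most like the tetraspanin gene Cd9 (0.88), Scarb2, Anxa2 and Clu (0.86 each) and Sfn (0.85).

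Of 16 desmosomal, plakin and chaperone partners of keratin filaments, 6 rose and 7 fell, near the shares of all genes called higher (37.3%) and lower (39.9%). Their median log2 fold was 0.12, against -0.06 over all 20907 genes. The desmosomal plaque gene Pkp3 rose by 2.70 ± 0.32 (SE), the desmosomal cadherin gene Dsc2 by 1.73 ± 0.21 and plakoglobin, Jup, by 0.77 ± 0.16. The cytolinker genes Dst (-3.11 ± 0.17) and Plec (-1.73 ± 0.16) and the armadillo gene Pkp4 (-2.15 ± 0.11) fell. Dsp, which ties keratin filaments to desmosomes, was at 76.2 ± 88.8 CPM in EpiSC and 83.5 ± 20.4 CPM in DE (SD, n = 17 each; log2 fold 0.76 ± 0.22, called).

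Of 14 other intermediate filament genes tested, 10 fell and 0 rose, against 39.9% of all genes called lower and 37.3% called higher, and the median log2 fold was -1.38. The 4 that did not pass were the lamin genes Lmna (0.34 ± 0.28, SE) and Lmnb2 (0.06 ± 0.06), Sync (0.28 ± 0.26) and Prph (0.02 ± 0.27). The neurofilament genes Nefm (-4.99 ± 0.49) and Nefl (-4.18 ± 0.31) and Nes (-4.17 ± 0.38), the filament gene of neural progenitors, had the largest falls. Vim, the filament gene of mesenchymal and many cultured cells, was at 536.1 ± 224.7 CPM in EpiSC and 262.1 ± 250.4 CPM in DE (SD, n = 17 each). Beside this, 12 of 12 fibroblast markers fell in DE, and they summed to 83.6 to 4157 CPM in EpiSC, which were grown on fibroblast feeders, against 38.9 to 1385 CPM in DE. The part of feeder RNA in the fall of Vim was not tested. DESeq2 also called 0 of the 14 higher, and 0 of them were higher with an unadjusted p under 0.05 by edgeR, while the fit with no strain term called 1 higher.

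Of 16 regulators of epithelial genes tested, 9 rose and 4 fell (median log2 fold 0.87), against 37.3% and 39.9% of all genes. Ovol2, a zinc finger repressor of mesenchymal genes, rose by 5.16 ± 0.27, Grhl3 by 3.85 ± 0.16 and the ETS factor gene Ehf by 3.83 ± 0.31. Tfap2a (-4.41 ± 0.45), Fosl1 (-1.82 ± 0.33) and Klf4 (-1.43 ± 0.27) fell. Tfap2a was low in both cell types, with means of 0.916 CPM in EpiSC and 0.0583 CPM in DE. Of 14 epithelial surface and junction genes 9 rose and 1 fell (median 0.75; the same shares of all genes apply), led by the claudin gene Cldn6 (2.56 ± 0.17), the protease gene Prss8 (2.42 ± 0.16) and its inhibitor Spint2 (2.41 ± 0.10). Tjp1, a tight junction scaffold gene, fell by 1.89 ± 0.13 on the log2 scale. Epcam, the epithelial adhesion gene, rose by 0.39 ± 0.10, and E-cadherin, Cdh1, was at 0.33 ± 0.16 and not called.

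Other tissues that make Krt8 and Krt18 were looked at through their markers, whose counts stand against the 37.3% of all genes called higher and the 39.9% called lower. A gene can pass the filter on low counts through the cell type where it is high, which favours a call in that direction. Of 10 trophoblast markers with counts given, 8 were tested, 6 rose and 1 fell, with Hand1 at 5.70 ± 0.86, Ascl2 at 4.32 ± 0.25 and Gata3 at 3.97 ± 0.36. Within EpiSC alone only 5 passed the filter, against 8 within DE, so the share that rose says little. Hand1 was low, with medians of 0.0296 CPM in EpiSC and 1.15 CPM in DE. They summed to 3.23 to 33.8 CPM in EpiSC (median 5.44) and 38.8 to 126.5 CPM in DE (median 73.7), and Tpbpa had 0 counts in all libraries. Cdx2, the trophectoderm homeobox gene, fell by 2.79 ± 0.63 on the log2 scale. Of 12 visceral and parietal endoderm markers 10 were tested, 3 rose (Apoa1 4.30 ± 0.49, Amn 3.42 ± 0.49 and Rhox5 0.90 ± 0.25) and 1 fell (Thbd, -4.48 ± 0.60). They summed to 195.5 to 1391 CPM in EpiSC and 327.2 to 2314 CPM in DE. Sparc alone had means of 685.7 CPM in EpiSC and 744.4 CPM in DE and was not called. Of 11 surface ectoderm and squamous markers 6 rose and 1 fell, with Krt15 at 3.06 ± 0.57, Wnt6 at 2.81 ± 0.90, Perp at 2.61 ± 0.15 and Ivl at -3.16 ± 0.56. Of the basal keratinocyte pair, Krt14 was called (2.46 ± 0.99) at levels near 0, with a median of 0 CPM in both cell types, means of 0.161 CPM in EpiSC and 0.305 CPM in DE, and a highest library of 2.46 CPM in EpiSC and 1.74 CPM in DE. Krt5 was at 0.05 ± 0.95 and not called. The part of such cells in the keratin levels was not tested.

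**Figure D5:**
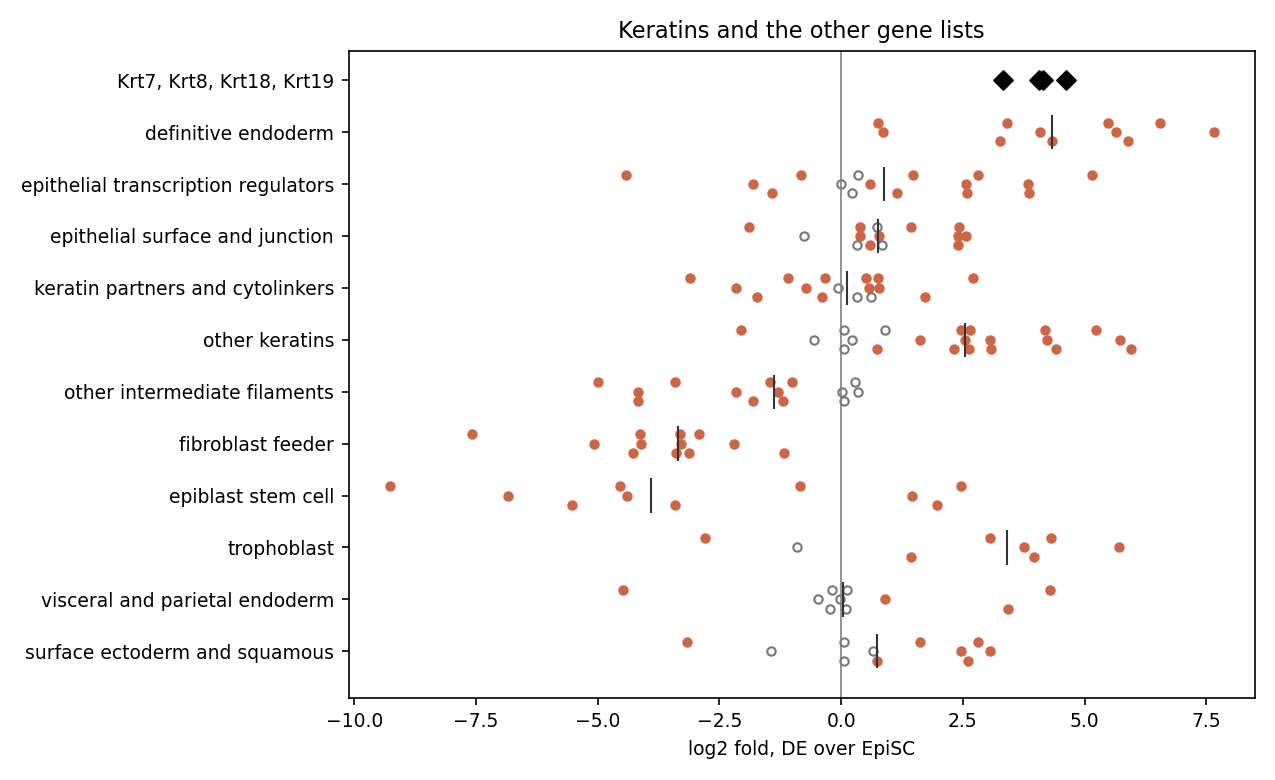
Log2 fold of DE over EpiSC for the 4 keratins (diamonds) and for the tested genes of 11 other lists, with filled points for genes past the test, open points for the rest and a bar at each list's median. The 4 keratins lie at 3.32 to 4.61, in the range of the definitive endoderm list (median 4.34) and above the medians of the keratin partner (0.12) and other intermediate filament (-1.38) lists.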

How the data were processed

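RNA of 17 EpiSC and 17 DE libraries was sequenced as paired reads. The values are counts of reads per gene, whole numbers deposited by the authors with no normalisation. The submitters' processing notes name STAR 2.4, HTSeq 0.6.1, DESeq2 and the mm10 build, but of the counting, neither annotation release nor strand setting nor the treatment of multiply aligned reads is given in these sources. Reads can therefore be split between Krt8 and its pseudogene Krt8-ps, and Krt18 has the pseudogene Gm5200 (90.2% identical by blastn 2.17.0), which was not analysed here. In the tables, 0 rows named no gene and 0 columns of other samples were present.

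Samples were grouped by the labelled cell type and genotype. A gene was tested if 3 or more libraries had 10 or more counts. The tool was edgeR 4.0.16 under R 4.3.3 (quasi-likelihood F test, robust, with TMM scaling; threshold 0.05 after Benjamini-Hochberg adjustment over all tested genes). The SE is the log2 fold divided by the square root of F. DE was fitted against EpiSC over 34 libraries with strain as a term, and strains within each cell type, each called strain having at least 2 lines. The 2 libraries of a line come from the same cell line, which pairs them by origin, and their deviations from the group means correlated with r of 0.0014 to 0.147 over 14 lines (median 0.0357). In a strain with 2 lines the deviations mirror each other and both lines give the same r, so the 14 values are not all separate. Libraries of a group differed by a chi-square per degree of freedom of at least 6.02 in EpiSC and 28.4 in DE, so none was a duplicate. P-values of strains measure the spread between lines. Log2 CPM used a prior count of 2. The fits were tested on simulated data.

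Alternatives were RLE scaling, total counts only, other filters, DESeq2 1.42.0, each library left out, the line as a block, no strain term and, chosen after seeing the data, added Krt8-ps counts and runs without NOD/ShiLtJ DE or CAST/EiJ. The keratins and gene lists were chosen with earlier results of these data known. Genes named from a list are up to 3 per direction with the largest called log2 folds, and those most like a keratin are the 5 highest Pearson r, of which 1 gene is not reported here. Dsp, Vim, Epcam, Cdh1, Krt5 and Krt14 were named after their values were seen. Without molecular identifiers, PCR copies of a molecule are counted as separate reads.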

Additional observations from a re-analysis of the deposited data

Results flagged for a closer look

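Among 18 sets of 4 or 5 libraries of a strain and cell type, 4 had a library whose gap to the nearest other was large against the whole range. The rule marks about 1 set in 20 by chance if values are normally distributed and sets are separate. Here the values were not logged and the sets share libraries, so 4 of 18 is not shown to exceed chance. Krt19 in C57BL/6J EpiSC was at 84.8 CPM in line 4 against 2.43 to 13.7 CPM in the other 4 lines, a gap of 0.863 of the range. Krt8 (284.3 CPM) and Krt18 (213.2 CPM) were also highest in that library among C57BL/6J EpiSC. Krt7 in C57BL/6J DE was at 320.4 CPM in line 2 against 115.4 to 144.7 CPM in the other 4 lines (0.857 of the range). The same library had the lowest ratio of Krt8 to Krt18 per kb in C57BL/6J DE, 0.714 against 1.02 to 1.06 (0.884 of the range), with Krt18 at 1963 CPM. The share of Krt8-ps in the summed counts of Krt8 and Krt8-ps was 5.5% in the DE of PWK/PhJ line AC698 while AC695, AC699 and AC705 had 3.18%, 3.00% and 3.24% (0.904 of the range).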

How the results depend on the processing

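The rise of 4 of 4 keratins in DE was called under 10 other settings and in 34 runs that left out 1 library each. Their log2 folds ran from 3.78 to 4.91 for Krt8, from 3.70 to 4.20 for Krt18, from 3.69 to 4.29 for Krt7 and from 3.05 to 3.96 for Krt19 over these runs. The lowest Krt8 value (3.78) came from the fit with no strain term. The balance of type II to type I chains was 0.66 to 0.80 with each line left out and 0.68 to 0.74 under the other settings. The cell line as replicate block, which is a fit with the pairing by line, called Krt19 in C57BL/6J (2.57) and changed no other keratin call, while the interaction over all genes went from 2227 to 1102 calls.

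Of 20 comparisons of cell type within a strain, 18 to 19 were called with 1 library left out and 18 to 20 under the other settings. The interaction called 3 of 4 keratins with no filter on low counts, 1 by DESeq2, and 0 to 1 with 1 library left out, against 0. The EpiSC F test called 2 to 4. The DE F test called 3 in each such run, 4 with no filter and 1 without both NOD/ShiLtJ DE libraries. Strain contrasts in EpiSC called 6 by DESeq2 and 1 to 4 with 1 library left out, against 1. It was 2 without C57BL/6J line 2, 3 without line 4 and 4 without line 5-1. Strain contrasts in DE called 8 with no filter and 2 to 6 with 1 library left out, against 4. The cause of the larger counts with no filter and by DESeq2 was not tested.

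Of 2296 recomputed keratin results 10 changed sign, and none of these 10 was called, before or after. Krt18 in NZO/HiLtJ DE against C57BL/6J was at 0.00 with total counts only. With 1 library left out it ran from -0.15 to 0.17, and Krt7 in PWK/PhJ DE from -0.08 (without AC695) to 0.59. In EpiSC against C57BL/6J, Krt19 ran from -0.76 (without WM080) to 2.76 (without C57BL/6J line 4, and then called) in CAST/EiJ, from -2.18 to 1.27 in NOD/ShiLtJ and from -1.81 to 0.87 in WSB/EiJ, both highest without line 4. Krt7 ran from -0.66 to 0.03 in NZO/HiLtJ and from -0.34 to 0.13 in PWK/PhJ.

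Over all genes, the calls of the interaction were 4155 with no filter, 3849 by DESeq2 and 1420 without NOD/ShiLtJ DE. No filter gave 6782 calls of the DE F test against 4294, and in DE 3342 for NOD/ShiLtJ against 2191, 1054 for NZO/HiLtJ against 272 and 1241 for WSB/EiJ against 439. DESeq2 gave 1817 for NZO/HiLtJ in EpiSC against 986, and in DE 720 for NZO/HiLtJ and 945 for WSB/EiJ. With 1 library left out the lowest counts were 406, 84 and 135 for NOD/ShiLtJ, NZO/HiLtJ and WSB/EiJ in DE, and 848, 242 and 526 in EpiSC, against 2309, 986 and 1324. Total counts only moved the median log2 fold of all genes by 0.12 for NOD/ShiLtJ between cell types.

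The limits are few lines per strain, with 1 or 2 in 5 of 7 strains, a kit that follows the cell type, alignment of all strains to mm10, and bulk RNA that holds other cells. The smallest keratin count was 37 (Krt19 in EpiSC), so low counts bear most on Krt7 and Krt19 in EpiSC.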

Other observations

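The pseudogene Krt8-ps (chromosome 7, 23357125 to 23358069, plus strand; GRCm38) is a processed copy of Krt8, matching 48.1% of the transcript at 98.6% identity. It had reads mostly in the wild-derived strains. Its share of the summed counts of Krt8 and Krt8-ps in EpiSC was 8.28% and 8.7% in CAST/EiJ, 5.5%, 7.7% and 8.16% in PWK/PhJ and 1.14% and 1.62% in WSB/EiJ. In the EpiSC of C57BL/6J, NOD/ShiLtJ, NZO/HiLtJ and DBA/2J it ran from 0% to 0.278%. In DE it was 5.23% in CAST/EiJ, 3.00% to 5.5% in PWK/PhJ, 0.863% and 0.989% in WSB/EiJ and 0.0936% to 0.199% in the other strains. The mean share was lower in DE than in EpiSC in 4 of 7 strains (CAST/EiJ, PWK/PhJ, WSB/EiJ and DBA/2J) and higher in C57BL/6J, NOD/ShiLtJ and NZO/HiLtJ, with no test made. EpiSC libraries of C57BL/6J, NOD/ShiLtJ, NZO/HiLtJ and DBA/2J had only 0 to 9 Krt8-ps counts each, so the direction in those strains rests on few reads. Adding these counts to Krt8 changed no keratin call.

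Of 52 other genes with a keratin symbol, 21 passed the filter on low counts, 15 of these rose and 1 fell, against 37.3% and 39.9% of all genes tested, which says little of the rest, since a gene can pass through the cell type where it is high. Summed over the 52 genes, the level was 7.35 to 108 CPM in EpiSC and 27.5 to 288.7 CPM in DE, against 48.7 to 1208 CPM and 1879 to 9350 CPM for Krt7, Krt8, Krt18 and Krt19 together. The highest by mean CPM in DE were Krt8-ps (35.3), Krt80 (18.3 ± 9.85, SD, n = 17), Krt87 (14.4 ± 17.5), Krt10 (7.93 ± 2.13) and Krt90 (3.12 ± 1.71). Krt80, a type II keratin, was at 0.443 ± 0.514 CPM in EpiSC (SD, n = 17; log2 fold 5.72 ± 0.42), and Krt87 at 0.748 ± 1.51 CPM (5.23 ± 0.41). Krt20, a type I keratin known from the gut lining, fell by 2.05 ± 0.67 on the log2 scale. Its levels were near 0 in both cell types, with means of 0.235 CPM in EpiSC and 0.0746 CPM in DE.

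In the strain F tests, 13 of 16 keratin partner genes differed among EpiSC strains and 5 of 16 among DE strains, against 52.8% and 22.3% of all genes tested. Of 14 other intermediate filament genes, 9 and 10 differed in EpiSC and DE. Of 12 fibroblast markers, 0 differed in EpiSC and 7 in DE (edgeR).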
